A study of Mus musculus with 6 samples.

Results

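Scarf2 and 8 related receptors for scavenging and engulfment were followed in brains of Kdm5c deficient and wild-type mice. Kdm5c is the X-linked gene of a demethylase of histone H3 lysine 4. The members are the rows of the deposited table whose symbol is Scarf1, Scarf2, Scarb1, Scarb2, Megf10, Megf11, Tyro3, Axl or Mertk, so 9 of 43346 rows. All 9 had reads and passed the filter on low counts, which 15127 of the 21087 rows with a read passed. Scarf2 was picked for its difference between these same 6 mice and the others for their relation to it. Differences of the 9 members between genotypes are therefore given as descriptions. The count of members past the test over all genes is given beside that of all genes, and nothing is read from it.

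RNA was sequenced from brains of adult males, 3 Kdm5c deficient and 3 wild type littermates. Every mouse was C57BL/6 and 129 in equal parts by strain, from heterozygous deficient C57BL/6 dams mated to wild type 129 sires. No treatment is given, and the labels describe neither the deficient allele nor the dissected part of the brain. Each library is 1 mouse, with total counts from 20221675 to 24555412. Levels are given as CPM, counts relative to a library total scaled by trimmed mean of M-values.

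Kdm5c itself measured 73.8, 65.5 and 78.8 CPM in deficient mice 1, 2 and 3 and 77.5, 82.7 and 84.0 CPM in wild-type mice 1, 2 and 3, with the genotypes overlapping. Counts over the whole gene do not show whether a deleted stretch is missing, so this level does not check the labels. All marker genes listed for 12 brain cell types and regions were detected. Deficient mouse 2 stood apart: 12 cerebellar markers summed to 420 CPM there, against 1266 to 1660 CPM in the other deficient and 1830 to 2028 CPM in the wild-type mice.

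Scavenger and engulfment receptors bind lipoproteins, dying cells or cell debris at the surface and pass them inward. The class F pair Scarf1 and Scarf2, like Megf10 and Megf11, carry repeated EGF-like modules outside the cell and resemble the CED-1 and Draper engulfment receptors of worms and flies. Tyro3, Axl and Mertk, the TAM receptor tyrosine kinases, reach exposed phosphatidylserine on dying cells through the bridging proteins Gas6 and Pros1. In brain, astrocytes use Megf10 and Mertk to clear synapses, microglia use Axl and Mertk to clear dying cells, and Tyro3 is known from neurons.

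Scarf2 lies on chromosome 16, plus strand, from 17797282 to 17808293 (GRCm38), and none of its annotated exons overlaps those of another gene. Of the 9 members, 3 had every deficient mouse above every wild-type mouse, namely Scarf2, Axl and Mertk, beside 14.9% of all tested genes. The stretch of 250 bases before the RefSeq start of each is shown because promoters are where histone H3 lysine 4 trimethylation is concentrated. Each is written 5′ to 3′ on the gene's own strand, from RefSeq on GRCm38.p6, with CpG dinucleotides in capitals. They come from chr16:17797032-17797281 on the plus strand for Scarf2, chr7:25788734-25788983 on the minus strand for Axl and chr2:128698665-128698914 on the plus strand for Mertk.
Scarf2: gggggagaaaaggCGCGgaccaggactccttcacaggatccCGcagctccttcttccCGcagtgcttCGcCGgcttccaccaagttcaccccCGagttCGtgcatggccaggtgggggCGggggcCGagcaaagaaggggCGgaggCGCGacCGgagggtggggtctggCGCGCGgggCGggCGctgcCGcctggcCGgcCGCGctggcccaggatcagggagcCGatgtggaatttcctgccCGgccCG
Axl: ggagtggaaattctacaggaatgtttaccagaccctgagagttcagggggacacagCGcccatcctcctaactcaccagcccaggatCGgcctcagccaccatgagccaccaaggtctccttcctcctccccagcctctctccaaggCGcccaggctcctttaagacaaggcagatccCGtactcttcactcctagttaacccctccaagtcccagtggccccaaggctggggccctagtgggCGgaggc
Mertk: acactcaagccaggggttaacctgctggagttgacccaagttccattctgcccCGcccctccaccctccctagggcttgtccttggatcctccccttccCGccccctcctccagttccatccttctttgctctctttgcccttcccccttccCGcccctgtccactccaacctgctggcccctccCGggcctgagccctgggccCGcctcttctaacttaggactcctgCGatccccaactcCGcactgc
The Scarf2 window held 26 CpGs, more than in 90.4% of 32851 promoter windows of this length, whose median was 6. The Axl window held 5 and the Mertk window 7, both near that median. Among the other members with a RefSeq window, Scarb2 had 19 CpGs and Tyro3 24. The letters CACGTG (an E-box) and TGACG (the core of a cyclic AMP response element) were in none of these 5 windows on either strand, against 6.02% and 17.8% of all windows. GCGGGAA, an E2F-type core, was in the windows of Scarf2 and Mertk and in 3.82% of all windows. GGGCGG, a GC box, was in all 5 and in 32.7% of all windows. These matches describe letters only, since no binding or histone mark was measured.

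Scarf2 was the member that differed most. It encodes a class F receptor whose loss in humans causes Van den Ende-Gupta syndrome. The libraries held 289, 376 and 315 Scarf2 reads in deficient mice 1, 2 and 3 and 97, 78 and 101 reads in wild-type mice 1, 2 and 3. That is 13.6, 15.8 and 14.5 CPM against 3.92, 3.81 and 4.41 CPM. The genotypes were far apart, the lowest deficient mouse being 3.08-fold above the highest wild-type mouse. Deficient brain averaged 14.6 ± 1.10 CPM and wild-type brain 4.05 ± 0.323 CPM (SD, n = 3 each), a 3.61-fold difference. The log2 fold change was 1.85 ± 0.11 (SE), and it ran from 1.79 to 1.92 when each mouse was left out in turn. Deficient mouse 2, with its low cerebellar markers, had the highest Scarf2 level, and without it the log2 fold change was 1.79. In the authors' own DESeq2 columns, with the sign turned to deficient over wild type, the log2 fold change of Scarf2 is 1.43. Their values for the other members are also smaller in size than those here, such as -0.27 for Megf11. The authors' DESeq2 settings are not given, and why the values differ was not tested.

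Scarf1, the other class F receptor, which binds modified lipoproteins and complement-coated dying cells, overlapped between genotypes. It measured 3.43, 2.26 and 2.67 CPM in deficient mice 1, 2 and 3 and 4.33, 2.49 and 3.54 CPM in wild-type mice 1, 2 and 3. Both genotypes varied widely at this low level of 51 to 107 reads. The log2 fold change was -0.32 ± 0.23 (SE), and it moved with single mice. It was -0.50 without deficient mouse 1 or without wild-type mouse 2, -0.19 without deficient mouse 2 and -0.12 without wild-type mouse 1.

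**Figure D1:**
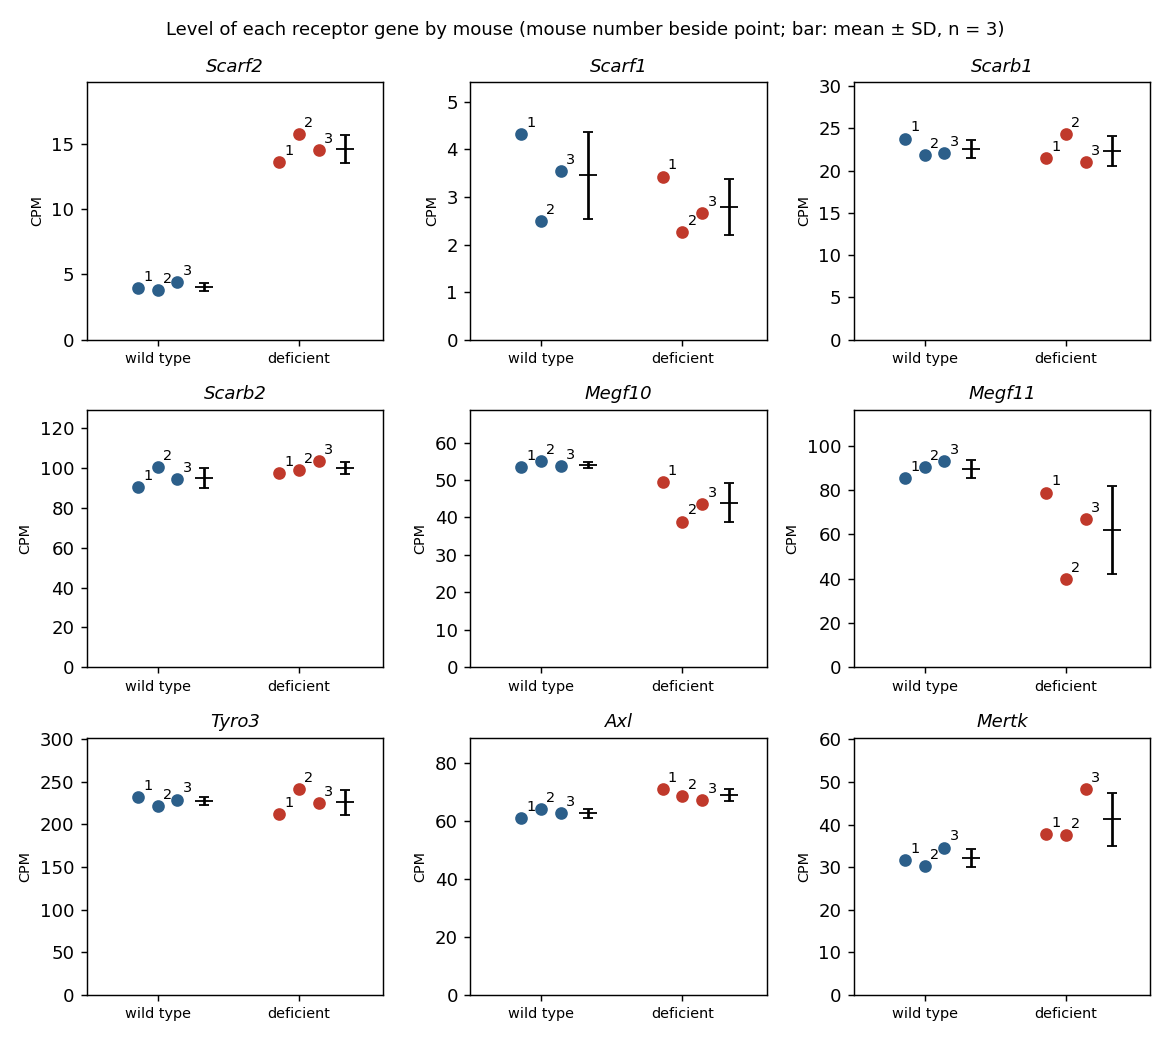
Level in CPM (y axis, from 0) of each of the 9 receptor genes in the 3 wild-type (blue) and 3 deficient (red) mice, numbered by mouse, with mean ± SD beside each group. Scarf2 sits near 4 CPM in wild-type and between 13.6 and 15.8 CPM in deficient mice, while the other 8 genes differ less or overlap.

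The class B receptors overlapped between genotypes. Scarb1, the receptor for high-density lipoprotein, ran from 21.03 to 24.4 CPM in deficient and from 21.9 to 23.8 CPM in wild-type mice. Scarb2, a lysosomal membrane protein that carries glucocerebrosidase to lysosomes, ran from 97.4 to 103 CPM in deficient and from 90.5 to 100.4 CPM in wild-type mice. The log2 fold changes were -0.02 ± 0.08 and 0.07 ± 0.05 (SE).

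The EGF-repeat receptors Megf10 and Megf11 were lower in deficient brain, opposite to Scarf2. Megf10, which astrocytes use to engulf synapses, measured 49.4, 38.9 and 43.6 CPM in deficient mice 1, 2 and 3 and 53.4, 55.0 and 53.6 CPM in wild-type mice 1, 2 and 3. All deficient mice were below all wild-type mice, and deficient mouse 2 was the lowest. Megf11, its close relative known for spacing retinal neurons together with Megf10, measured 78.9, 39.8 and 67.1 CPM in deficient mice 1, 2 and 3. In wild-type mice 1, 2 and 3 it measured 85.4, 90.3 and 93.0 CPM, again above every deficient mouse. The log2 fold changes were -0.30 ± 0.08 for Megf10 and -0.53 ± 0.20 for Megf11 (SE). Without deficient mouse 2 they were -0.22 and -0.30, and both remaining deficient mice were still below all wild-type mice for either gene.

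Cerebellar markers moved with this pair. The mean log2 deviation of the 12 markers from their mean over 6 mice was 0.38, -2.12 and -0.04 in deficient mice 1, 2 and 3 and 0.52, 0.56 and 0.69 in wild-type mice 1, 2 and 3. Megf11 deviated by 0.11, -0.87 and -0.12 in deficient mice 1, 2 and 3 and by 0.23, 0.31 and 0.35 in wild-type mice 1, 2 and 3. For both, deficient mouse 2 was lowest and all deficient mice were below all wild-type mice. The part of tissue makeup in the Megf10 and Megf11 values was not tested. In whole tissue, fewer cells of a type and less RNA per cell cannot be told apart.

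Among the TAM kinases, Mertk and Axl were higher in deficient brain and Tyro3 overlapped between genotypes. Mertk, used by glia to clear dying cells and synapses, measured 37.8, 37.6 and 48.4 CPM in deficient mice 1, 2 and 3 and 31.7, 30.3 and 34.6 CPM in wild-type mice 1, 2 and 3. Deficient mouse 3 was well above the other 5. The log2 fold change was 0.36 ± 0.10 (SE), and 0.23 without deficient mouse 3. Axl, the relative that glia raise in inflammation, measured 70.9, 68.4 and 66.9 CPM in deficient mice 1, 2 and 3 and 60.8, 64.0 and 62.7 CPM in wild-type mice 1, 2 and 3. The gap between the genotypes was narrow, and the log2 fold change was 0.14 ± 0.05 (SE). Tyro3, the neuronal member, ran from 212 to 241 CPM in deficient and from 222 to 232 CPM in wild-type mice, with a log2 fold change of -0.01 ± 0.06 (SE). The wild-type range of Tyro3 lay inside the deficient range.

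By mean log2 deviation, microglial markers and, by a narrow gap, endothelial markers were higher in every deficient mouse, like Axl and Mertk. The 12 microglial markers, all detected, summed to between 356 and 397 CPM in deficient and between 316 and 331 CPM in wild-type mice. Their mean log2 deviations were 0.07, 0.22 and 0.08 in deficient mice 1, 2 and 3 and -0.05, -0.12 and -0.20 in wild-type mice 1, 2 and 3. The 12 endothelial markers, all detected, summed to between 286 and 331 CPM in deficient and between 284 and 293 CPM in wild-type mice, with mean log2 deviations of 0.16, 0.07 and -0.02 against -0.03, -0.07 and -0.10. The 12 astrocyte markers, all detected, summed to between 5665 and 6183 CPM in deficient and between 5345 and 5658 CPM in wild-type mice. Their mean log2 deviations overlapped, at 0.14, -0.14 and 0.09 in deficient mice 1, 2 and 3 and -0.03, -0.04 and -0.03 in wild-type mice 1, 2 and 3, with deficient mouse 2 the lowest. Mural cell marker sums were also higher in every deficient mouse, at 232 to 236 CPM against 184 to 226 CPM in wild-type mice. Oligodendrocyte marker sums were lower in every deficient mouse, at 6120 to 7702 CPM against 7747 to 8761 CPM. For both of these lists the mean log2 deviations overlapped. Among the deficient mice, microglial markers were highest in mouse 2, Mertk in mouse 3 and Axl in mouse 1. The part of cell makeup in the Axl and Mertk values was not tested.

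**Figure D2:**
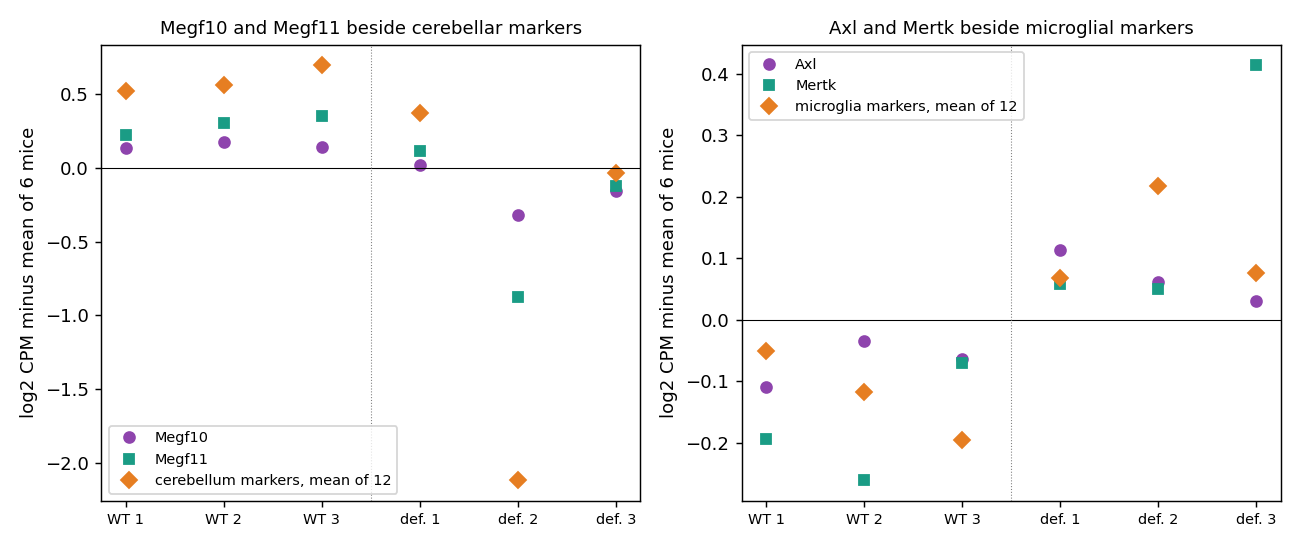
Log2 CPM minus the mean of 6 mice (y axis) for each mouse (x axis; WT, wild type; def., deficient), with Megf10 and Megf11 beside the mean of 12 cerebellar markers at left and Axl and Mertk beside the mean of 12 microglial markers at right. Deficient mouse 2 is lowest for Megf10, Megf11 and the cerebellar markers (-2.12), and Mertk is highest in deficient mouse 3.

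In sum over the family, 4 of the 9 members were higher and 5 lower in mean, with a median log2 fold change of -0.01 against 0.00 over all tested genes. Apart from the 3 members without overlap above, 2 were without overlap below, Megf10 and Megf11. Of all tested genes 30.8% did not overlap between genotypes, 14.9% with the deficient mice above and 16.0% with them below. Only Scarf2 passed edgeR's test across all genes (quasi-likelihood, adjusted p under 0.05), 1 of 9 members beside 4.93% of all tested genes. As Scarf2 was picked on this contrast, nothing is read from these counts.

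**Figure D3:**
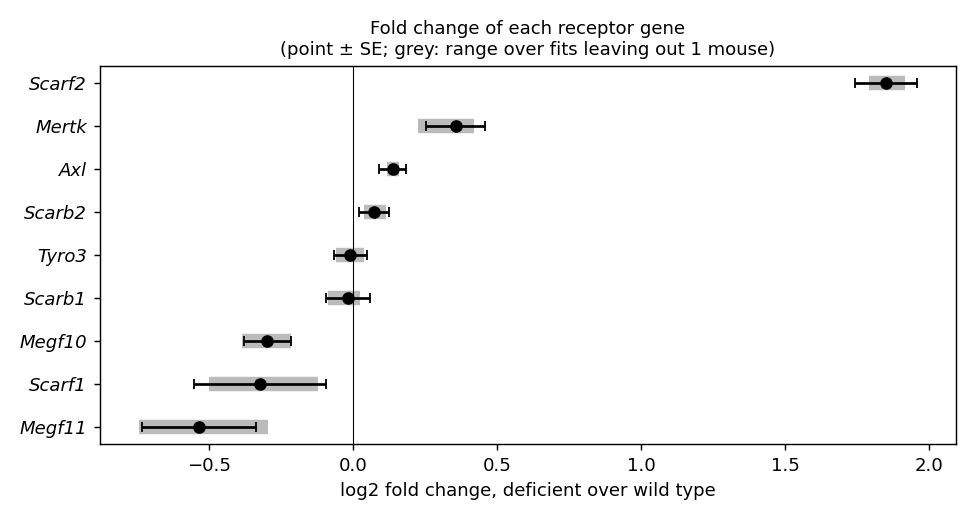
Log2 fold change of each receptor gene, deficient over wild type (x axis), as a point with its SE, over a grey bar for the range of fits that left out 1 mouse. Scarf2 at 1.85 stands far from the others, which lie between -0.53 (Megf11) and 0.36 (Mertk).

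Levels of different genes were compared as CPM per kilobase of annotated exon. In wild-type brain Tyro3 was the most abundant member, at 36.7 ± 0.821 CPM per kb (SD, n = 3), followed by Scarb2 at 15.1 ± 0.785 and Axl at 12.4 ± 0.325. Megf11 at 8.01 ± 0.345, Mertk at 7.42 ± 0.505 and Megf10 at 6.998 ± 0.108 CPM per kb came next, and neighbours in this trio overlapped between mice. Scarb1 was at 2.66 ± 0.124 CPM per kb, with Scarf1 at 1.20 ± 0.319 and Scarf2 at 1.06 ± 0.0832 lowest and overlapping. In deficient brain Scarf2 stood at 3.81 ± 0.287 CPM per kb (SD, n = 3), above Scarb1 at 2.62 ± 0.212 without overlap and overlapping only Megf11. Mertk, at 9.51 ± 1.42 CPM per kb there, was above Megf10 and Megf11 without overlap.

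With all 6 mice, no tested gene near Scarf2 was called higher. Of 9 tested genes starting within 250 kb of its start, none was higher in the edgeR test (adjusted p under 0.05) and 1 was lower, beside 2.45% higher and 2.48% lower of all tested genes. DESeq2 and limma-voom gave the same counts, beside 601 higher and 612 lower of all tested genes in DESeq2 and 342 and 362 in limma-voom. Of the 9, 5 had an unadjusted p under 0.05, beside 24.9% of all tested genes. Without deficient mouse 1 the calls were 1 higher, Klhl22, and 2 lower, Ccdc74a joining the first. In that fit 1101 of all 15379 tested genes were higher and 997 lower. Without deficient mouse 2 or 3 the count of neighbours was 1, beside 693 and 155 of all tested genes. It was 0 without wild-type mouse 1, 2 or 3, beside 44, 53 and 99 of all tested genes. The nearest tested gene, Klhl22, encodes an adaptor of a ubiquitin ligase and starts 37.7 kb away. It lies on the same strand and ends at 17793382, shortly before the Scarf2 start at 17797282. Klhl22 measured 98.8 ± 3.20 CPM in deficient and 88.4 ± 0.936 CPM in wild-type mice (SD, n = 3 each). Every deficient mouse was above every wild-type mouse for Klhl22, but its log2 fold change of 0.16 ± 0.04 (SE) did not pass (adjusted p = 0.0742 by edgeR). The transcription coactivator gene Med15 had -0.01 ± 0.05, the mitochondrial citrate carrier gene Slc25a1 -0.05 ± 0.06 and Dgcr6 -0.09 ± 0.13 (SE), none passing. Dgcr6 starts 256 kb from Scarf2, so it is not among the 9, and is named as 1 of the 3 nearest on its side. Ccdc74a had -0.31 ± 0.10 (SE), with every deficient mouse below every wild-type mouse, and Dgcr2 -0.07 ± 0.22 (SE), also without passing. Annotated exons of Med15 and Dgcr2 overlap those of other genes, so their reads are uncertain. Farther off, Lrrc74b at 0.65 ± 0.20 and the transporter-family gene Slc7a4 at 0.43 ± 0.16 (log2 fold changes with SE), named after their values were seen, had every deficient mouse above every wild-type mouse and did not pass. Exons of Slc7a4 overlap those of another gene. Genotypes did not overlap, in either direction, for 30.8% of all tested genes.

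The lower neighbour was Smpd4, a sphingomyelinase gene 178 kb from Scarf2, named after its value was seen. It measured 41.4, 39.0 and 46.6 CPM in deficient mice 1, 2 and 3 and 53.5, 58.0 and 52.9 CPM in wild-type mice 1, 2 and 3. All deficient mice were below all wild-type mice, with a log2 fold change of -0.37 ± 0.07 (SE) and an adjusted p of 0.0301 in edgeR. This call was lost without wild-type mouse 1, 2 or 3.

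**Figure D4:**
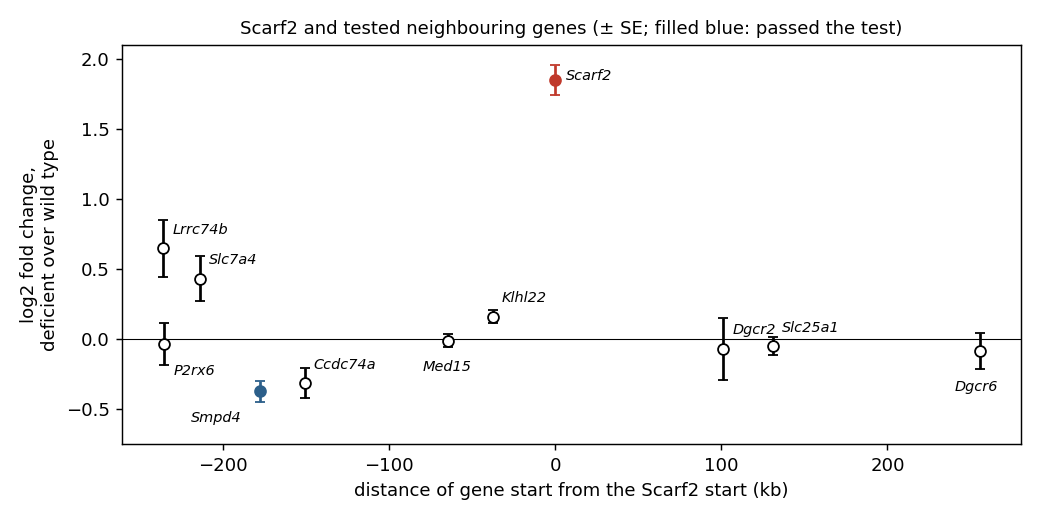
Log2 fold change with SE (y axis) of Scarf2 (red) and of the tested genes around it against the distance between gene starts in kb (x axis). Scarf2 is at 1.85 while its nearest tested neighbours Klhl22 and Med15 are at 0.16 and -0.01, and Smpd4 (blue) is the neighbour that passed the test, at -0.37.

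Pathway genes beyond the 9 receptors were tested in 6 lists. Of 98 listed genes in the table, 88 had enough reads, and 4 of these rose and 3 fell in the edgeR test. The 7 calls stand beside 4.93% of all tested genes (2.45% higher and 2.48% lower), and the lists' median log2 fold change was 0.03 against 0.00. The count was 8 without deficient mouse 2, 17 without deficient mouse 1, 1 without deficient mouse 3 and 0 without wild-type mouse 1, 2 or 3. Calls over all tested genes moved too. They numbered 693 of 15287 without deficient mouse 2, 2098 of 15379 without deficient mouse 1 and 155 of 15389 without deficient mouse 3. Without wild-type mouse 1, 2 or 3 they numbered 44 of 15249, 53 of 15328 and 99 of 15276.

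Among ligands and bridging molecules, 3 of 14 tested genes rose and none fell, at a median log2 fold change of 0.13. Clu, the secreted chaperone clusterin, measured 731, 737 and 709 CPM in deficient mice 1, 2 and 3 and 619, 569.9 and 603 CPM in wild-type mice 1, 2 and 3. Its genotypes were separate, and edgeR gave 0.28 ± 0.05 on the log2 scale (SE) with an adjusted p of 0.0226. Calr, a chaperone that also marks dying cells for uptake, rose from 275 ± 11.2 to 324 ± 4.95 CPM (SD, n = 3 each; log2 fold change 0.24 ± 0.05, SE; adjusted p = 0.0306 by edgeR). Apoe, the main lipid carrier made by astrocytes, rose from 1267 ± 108 to 1580.1 ± 65.1 CPM (SD, n = 3 each; log2 fold change 0.32 ± 0.07, SE; adjusted p = 0.0359 by edgeR). Each of these 3 calls was lost without deficient mouse 3 or wild-type mouse 1, 2 or 3. Microglial marker sums, given above, were also higher in every deficient mouse. So were astrocyte and mural cell marker sums, though the mean deviations of both lists overlapped. The part of cell makeup in these values was not tested.

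The TAM ligands Gas6 and Pros1 and the C1q chains, named after their values were seen, did not pass. The TAM ligand Gas6 ran from 126 to 146 CPM in deficient and from 138 to 144 CPM in wild-type mice, at -0.08 ± 0.06 on the log2 scale (SE) with an adjusted p of 0.455 in edgeR. Its exons overlap those of Tmem255b on the opposite strand, so its reads are uncertain. The other ligand, Pros1, measured 14.9, 15.7 and 15.0 CPM in deficient mice 1, 2 and 3 and 12.2, 15.4 and 12.5 CPM in wild-type mice 1, 2 and 3, and the genotypes overlapped. Complement C1q, whose chains bind Scarf1 and Megf10, had log2 fold changes of 0.23 ± 0.10 for C1qa, 0.13 ± 0.06 for C1qb and 0.17 ± 0.08 for C1qc (SE), and C1qa and C1qb are also among the microglial markers. Their adjusted p-values in edgeR ran from 0.179 to 0.241.

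Of 10 genes that set phosphatidylserine exposure none rose and 2 fell, at a median of -0.15. Atp11a, a flippase that returns the lipid to the inner leaflet, measured 38.2, 35.8 and 38.1 CPM in deficient mice 1, 2 and 3 and 45.6, 48.1 and 47.9 CPM in wild-type mice 1, 2 and 3. The genotypes were separate (log2 fold change -0.34 ± 0.05, SE; adjusted p = 0.0193 by edgeR). Xkr6, a relative of the scramblase Xkr8, fell from 8.66 ± 1.35 to 4.84 ± 1.29 CPM (SD, n = 3 each; log2 fold change -0.84 ± 0.20, SE; adjusted p = 0.0471 by edgeR), and it was lowest in deficient mouse 2, at 3.48 CPM. Exons of both genes overlap antisense genes, so their reads are uncertain, and each call was lost without deficient mouse 3 or wild-type mouse 1, 2 or 3. The call of Xkr6 was also lost with no scaling beyond the library total and among genes averaging at least 5 CPM, so that 2 pathway genes were lower in each of these fits.

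Other proteins with many EGF-like modules included 1 higher and 1 lower gene of 16, at a median of 0.05. Megf6 measured 8.31, 8.30 and 8.51 CPM in deficient mice 1, 2 and 3 and 6.23, 5.43 and 4.98 CPM in wild-type mice 1, 2 and 3. The genotypes were separate, at 0.59 ± 0.11 on the log2 scale (SE) with an adjusted p of 0.0266 in edgeR. Celsr3, a cadherin-type receptor of axon tract formation, fell from 191 ± 9.11 to 128 ± 20.0 CPM (SD, n = 3 each; log2 fold change -0.58 ± 0.10, SE; adjusted p = 0.0228 by edgeR), and it too was lowest in deficient mouse 2, at 105 CPM. Without deficient mouse 2 Celsr3 had -0.46 and Xkr6 -0.65, and both still passed. The call of Megf6 was lost without deficient mouse 3 or wild-type mouse 1, 2 or 3, and that of Celsr3 without wild-type mouse 1, 2 or 3. Exons of Celsr3 overlap a small RNA gene.

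In the remaining 3 lists no gene passed the edgeR test, and the counts at an unadjusted p under 0.05 stand beside 24.9% of all tested genes. Of all 15127 tested genes DESeq2 called 601 higher and 612 lower, and limma-voom 342 higher and 362 lower. Among 18 other engulfment receptors 4 had an unadjusted p under 0.05, and DESeq2 called 1 higher and limma-voom none. Trem2, the microglial lipid receptor and also a microglial marker here, had 0.50 ± 0.15, Stab1 -0.37 ± 0.12 and Lrp1, a large endocytic receptor, -0.18 ± 0.06 (log2 fold changes with SE). Exons of Stab1 overlap those of Nt5dc2. Among 12 other scavenger receptors 4 had an unadjusted p under 0.05, and DESeq2 and limma-voom called none. Cd68, of phagocyte lysosomes, had 0.51 ± 0.16, Scara3 0.33 ± 0.11 and the lipoprotein receptor Vldlr -0.18 ± 0.05. Among 19 engulfment signalling genes 5 had an unadjusted p under 0.05, and DESeq2 called 2 higher and 1 lower and limma-voom none. The focal adhesion kinase gene Ptk2 had 0.22 ± 0.07, Ankrd6 0.23 ± 0.06 and the small GTPase gene Rhog -0.23 ± 0.07.

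**Figure D5:**
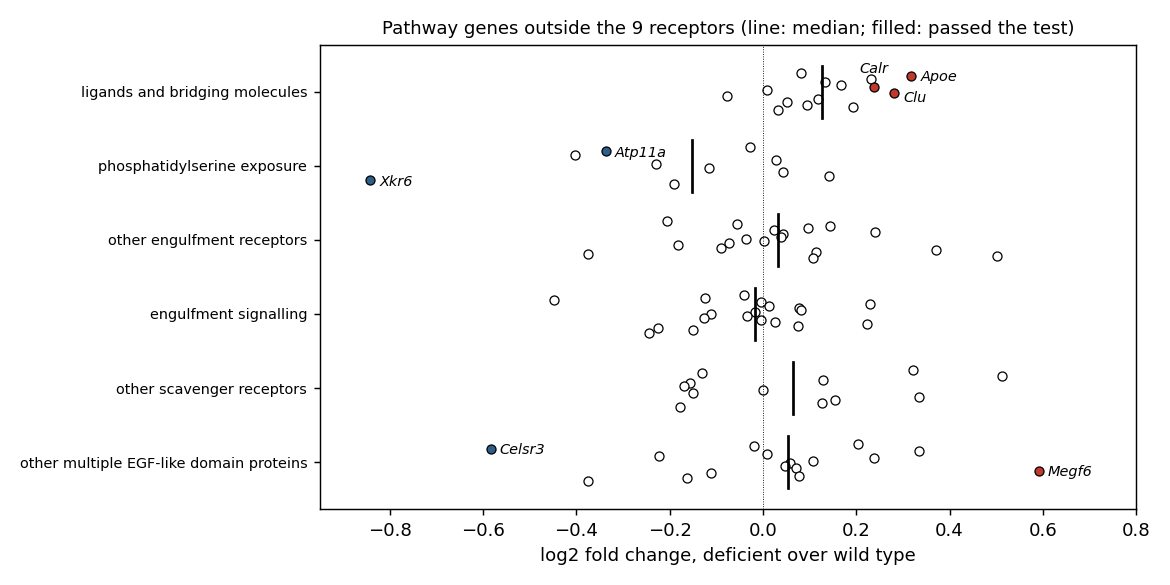
Log2 fold change, deficient over wild type (x axis), of each tested pathway gene by list, with the median of each list as a line and genes that passed the test filled red (higher) or blue (lower). Clu, Calr, Apoe and Megf6 rose and Atp11a, Xkr6 and Celsr3 fell; the medians run from -0.15 for phosphatidylserine exposure to 0.13 for ligands.

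The genes most like Scarf2 across the 6 mice were found by Pearson's r of log2 CPM among genes averaging 1 CPM or more. They were Ntn3, a netrin (r = 0.997), Mapkap1, a subunit of the kinase complex mTORC2 (0.997), the little described transcript A830008E24Rik (0.996), the small GTPase gene Rhob (0.996) and Siae, a sialic acid esterase gene (0.995). All 5 had every deficient mouse above every wild-type mouse, which follows from their being picked for likeness to Scarf2. The 6 points share libraries and depth. Their log2 fold changes were 1.24 ± 0.09, 0.13 ± 0.04, 3.17 ± 0.26, 0.25 ± 0.04 and 0.43 ± 0.05 (SE) in the same order, and Mapkap1 did not pass the edgeR test. Exons of Ntn3 and Siae overlap those of other genes. After each genotype's mean was subtracted the most alike were Gm1976 (r = 0.998), Grk6 (0.998), Lrp11 (0.996), Med10 (0.994) and Trp53i11 (0.992). They are the highest of 13961 genes over only 6 mice, so values this high can arise from the choice alone. Gm1976 and Med10, at 2.99 and 3.20 CPM on average in wild-type mice, have exons that overlap those of other genes. Among the members themselves, r with Scarf2 after subtracting genotype means ran from -0.74 for Megf10 to 0.76 for Tyro3.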

How the data were processed

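Raw counts per gene symbol for 6 mouse brains were deposited, per the file headers, which the authors did not normalize, plus their own DESeq2 columns: a mean normalized signal, a log2 fold change with SE, a Wald score and a p-value. The authors' log2 values are wild type over deficient. The aligner, the counting program, strandedness and annotation: not given in the sources used here; the submitters' processing notes name DESeq2 and GRCm38.

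Counts were fitted in R 4.3.3 with edgeR 4.0.16 (quasi-likelihood, trimmed mean of M-values, genotype as sole factor, default filter with minimum count 10 and minimum total 15). Benjamini-Hochberg adjustment covered all 15127 tested genes at 0.05. Alternatives were other scalings, no filter, a mean of at least 5 CPM, DESeq2 1.42.0, limma-voom (limma 3.58.1), a replicate block and leaving out each mouse. In a simulation of this comparison over 15127 genes, true changes of 1.25-fold were called in 22.9% of cases and 4-fold changes in 98%, with 59.2% for 1.5-fold and 76% for 2-fold; 18 of the 145 calls fell on genes simulated without a change. Positions, exon lengths and overlaps came from GENCODE M21 (GRCm38) by symbol, and 6 listed symbols were matched through synonyms. In 27 rows the symbol had become a date; none was named.

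The members and lists were chosen with earlier results of these data known. Named genes were the 9 members, up to 3 genes of smallest p per list, the 3 nearest tested genes on each side of Scarf2, the 5 most alike genes by each measure and Kdm5c. Replicates were separate mice. CPM at this depth rest on 51 reads or more for each member in each mouse, and intervals from counts would cover counting error only. With 3 against 3, an exact permutation test of a single gene cannot go below 0.1. Not every pathway gene tested is reported by name.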

Additional observations from a re-analysis of the deposited data

How the results depend on the processing

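The log2 fold change of Scarf2 stayed between 1.79 and 1.92 over all 14 alternatives, and the number of members higher in deficient brain between 4 and 6 of 9. The member past the threshold was joined by others with no low-count filter (3 in all), with DESeq2 (3) and in fits that left out 1 mouse (1 to 4). Of all tested genes 746 passed, 1121 with no filter, 1213 with DESeq2 and 44 to 2098 with 1 mouse left out. Pathway genes past the threshold numbered 7, 12 with DESeq2 and 0 to 17 with 1 mouse left out, and neighbours of Scarf2 numbered 1, or 0 to 3 with 1 mouse left out. Fits with a mouse left out also hold fewer mice. With the replicate number as a block, 58 genes, no pathway gene and no neighbour of Scarf2 passed (0 and 0), and Scarf2 had 1.85. The labels do not say whether the numbers mark pairs of littermates. Deviations of same-numbered mice correlated at -0.08, -0.09 and 0.16. Deficient mouse 1 correlated best with wild-type mouse 2 (0.19), deficient mouse 2 with wild-type mouse 1 (0.11) and deficient mouse 3 with wild-type mouse 3 (0.16). So few and such low values cannot decide whether the mice were paired. The direction turned for Dgcr2, which ran from -0.23 to 0.0455, and for Med15, which ran from -0.0468 to 0.0134, when single mice were left out. Among the members it turned for Scarb1, which ran from -0.09 to 0.02, and for Tyro3, which ran from -0.06 to 0.04. None of these 4 genes passed in any of these fits. Scarf1 was not tested at a mean of at least 5 CPM, where it lies below the limit. The cause of these shifts was not tested. Scarf1, at 51 to 107 reads, is the member most limited by depth.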
